A study of Homo sapiens with 6 samples.

Results

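The nuclear-encoded subunits of the mitochondrial respiratory chain were described across 6 human prostate cancer cell lines, 3 castration sensitive and 3 castration resistant. Members were chosen by a rule on names that uses no measured value, although earlier results of these data were known. It took protein-coding rows called NDUFA, NDUFB, NDUFC, NDUFS or NDUFV with a number, SDHA to SDHD, UQCR, CYC1, COX4 to COX8, or ATP5. The rule found 88 genes among 19959 protein-coding rows and 51698 rows in all. They comprised 37 genes of complex I, 4 of complex II, 9 of complex III, 19 of complex IV and 19 of complex V. A total of 83 passed the filter on low values and were tested. The other 5, COX4I2, COX6A2, COX6B2, COX7A1 and COX8C, are isoforms of complex IV and were below 1 scaled FPKM (FPKM, fragment counts made relative to gene length and library size, here also divided by a factor per library) in every library.

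The labels call LnCaP, VCaP and LAPC4 sensitive to castration. Their counterparts labelled resistant are LnCaP-abl, VCaP-CR and LAPC4-CR. RPMI with 10% fetal bovine serum was used for LnCaP and LAPC4, and DMEM with the same share of serum for VCaP. The medium of the resistant lines was RPMI with B27 supplement and 10% charcoal-stripped serum, which is depleted of steroids. State and medium therefore cannot be told apart, and no other treatment was given. Each line gave 1 library, so a pair is 1 resistant library and the sensitive library of the same lineage name. Within a pair there is no replicate and no test.

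The respiratory chain passes electrons from NADH through complex I, or from succinate through complex II, to complex III and then to cytochrome c oxidase, complex IV. Proton pumping by complexes I, III and IV drives the ATP synthase, complex V. Most of the subunits are encoded in the nucleus, and the few made inside mitochondria have no rows in these tables, which held 0 rows of the mitochondrial chromosome. In prostate epithelium the chain is of interest because normal secretory cells export citrate instead of oxidising it, and prostate cancer cells oxidise it again.

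Total counts ran from 8661337 in LnCaP to 22433655 in LAPC4-CR, and each resistant library held more counts than its sensitive partner. Members took 0.957% and 1.00% of all counts in LnCaP and LnCaP-abl, 0.856% and 0.806% in VCaP and VCaP-CR, and 0.827% and 0.859% in LAPC4 and LAPC4-CR. Of the counts in protein-coding genes, members took 1.41% and 1.29%, 1.36% and 1.19%, and 1.21% and 1.08% in the same order. The second share was lower in each resistant library, and the share of counts in protein-coding genes was higher there, at 77.4%, 68.0% and 79.5% against 67.8%, 62.8% and 68.3%. Of the 9 luminal markers, the keratins KRT8 and KRT18 were at 13.4 to 93.3 scaled FPKM in all 6 libraries. The summed level of the 9 was lower in each resistant library, at 263 against 966, 1669 against 2635 and 311 against 452 (LnCaP, VCaP, LAPC4 pairs). In the same order, 3, 2 and 4 of them were at least 2-fold lower there and 1, 1 and 1 at least 2-fold higher. Those higher by any amount numbered 4, 3 and 4. The summed level of the 6 basal markers was 32.5 and 23.5 in LAPC4 and LAPC4-CR and 3.60 to 7.69 elsewhere. Only 2 of the 6, ITGB4 and NGFR, passed the filter on low values. Both were called higher in the LAPC4 lineage (4.84% of all tested genes were) and lower in the VCaP lineage (5.27%). The 6 immune markers were at most 1.99 in any library, and 6 of the 7 stromal markers at most 1.10. The exception was LUM, a matrix proteoglycan, at 50.2 in VCaP-CR and 3.94 in VCaP. The summed level of the 8 neuroendocrine markers was 52.7 in VCaP-CR, 17.9 in VCaP and 6.73 to 14.7 elsewhere. The part of these markers in the members' values was not tested.

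The first comparison asked whether respiratory chain genes differed between resistant and sensitive libraries over the 3 pairs. None did at the threshold used. With edgeR's quasi-likelihood test, lineage as a block and Benjamini-Hochberg adjustment, 0 of 83 members were called higher (0% of all 16231 tested genes) and 0 lower (0%) at an adjusted p under 5%. At an unadjusted p under 0.05 there were 2 members, NDUFS1 and NDUFB4, both of complex I. DESeq2, which called 83 of all genes higher and 55 lower, and limma, which called 0 genes, also called 0 members in either direction. The adjusted p of the members was 0.60 or more in edgeR.

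NDUFS1 (ENSG00000023228, chromosome 2, 206694394 to 206732572, hg18) encodes the largest core subunit of complex I, an iron-sulfur protein of the arm that oxidises NADH. It was at 28.7 and 46.4 scaled FPKM in LnCaP and LnCaP-abl, 26.7 and 33.2 in VCaP and VCaP-CR, and 13.9 and 26.8 in LAPC4 and LAPC4-CR. The resistant library was the higher one in every pair, but the groups overlapped. On the log2(scaled FPKM + 1) scale, which understates changes at low levels, the changes were 0.68, 0.31 and 0.90, with a mean of 0.63 ± 0.30 (SD, n = 3 pairs). The edgeR log2 fold change was 0.66 (SE 0.25, adjusted p 0.60).

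NDUFB4 (ENSG00000065518, chromosome 3, 121797846 to 121804037, hg18) encodes an accessory subunit in the membrane arm of complex I. Its levels, sensitive library first, were 95.5 and 36.6 in the LnCaP lines, 56.4 and 51.4 in the VCaP lines, and 83.0 and 44.2 in the LAPC4 lines. All 3 resistant libraries lay below all 3 sensitive ones, although the gap in the VCaP pair was small. The mean log2 change was -0.79 ± 0.62 (SD, n = 3 pairs), and the edgeR log2 fold change was -0.80 (SE 0.31, adjusted p 0.62).

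Within pairs, members as a group differed by little, and the VCaP pair stood apart in the number below 0. The median log2 change of the 83 members was 0.04 for LnCaP, -0.19 for VCaP and -0.03 for LAPC4, against 0.08, -0.01 and 0.02 over 11341 tested protein-coding genes. The direction in the LnCaP pair flipped to -0.05 when scaling factors came from protein-coding genes, and that in the LAPC4 pair to 0.06 without scaling, whereas the VCaP median stayed below 0 under both, at -0.19 and -0.11. In the LnCaP pair 40 of 83 members were below 0 (50.9% of all tested genes were), for VCaP it was 66 (51.4%) and for LAPC4 45 (51.7%). Without scaling the VCaP count was 54. There were 17 members lower in all 3 pairs (background 16.7%) and 4 higher in all 3 (background 15.1%). The 4 were NDUFS1, NDUFA10, NDUFB3 and SDHC, and 11 of the 17 belonged to complex I. In bulk RNA, fewer cells with a transcript and less transcript per cell cannot be told apart.

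Changes of 2-fold or more were rare among members. No member was at least 2-fold higher in the LnCaP pair (background 6.23%), the VCaP pair (2.37%) or the LAPC4 pair (5.22%). Lower by at least 2-fold were NDUFB4 and COX7B2 in the LnCaP pair (background 6.19%), UQCRQ in the VCaP pair (2.03%) and no member in the LAPC4 pair (5.28%). COX7B2 passed the filter on low values only through its level in LnCaP, so its difference there was fixed by the filter.

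**Figure D1:**
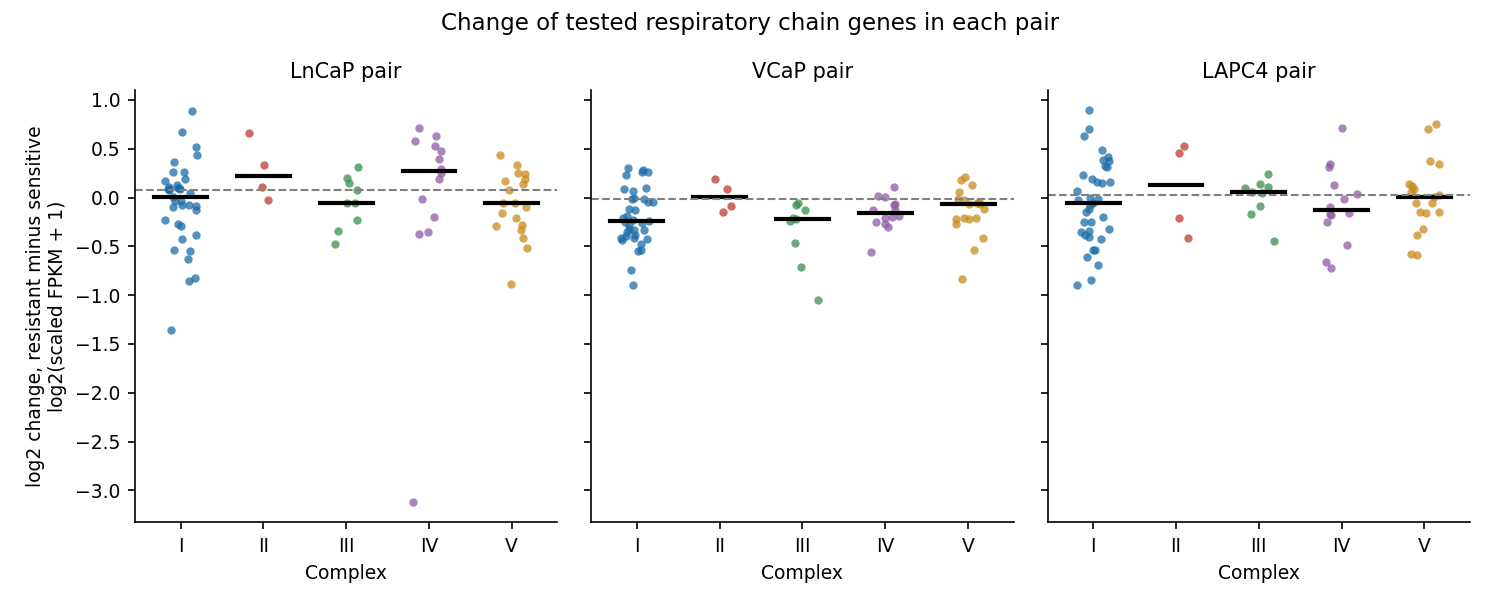
Each point is 1 tested member, placed by complex on the horizontal axis and by its log2 change from the sensitive to the resistant library on the vertical axis, with black bars for complex medians and a dashed line for the median of tested protein-coding genes. In the VCaP pair all 9 points of complex III lie below 0, and the lowest point of the LnCaP pair, at -3.12, is COX7B2.

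Complex I oxidises NADH, and its 37 members had median changes of 0.01, -0.24 and -0.05 (LnCaP, VCaP, LAPC4 pairs), of which the first became -0.10 with factors from protein-coding genes and the last 0.04 without scaling. The 11 NDUFS and NDUFV genes, which include the nuclear-encoded part of the catalytic core, had medians of 0.09, -0.23 and -0.20. The summed level of the complex was lower in each resistant library, at 1305 against 1429, 1039 against 1176 and 1185 against 1334 scaled FPKM. NDUFS5, a small accessory subunit and the complex I member with the highest level, was at 259, 252, 118, 127, 189 and 149 (order LnCaP, LnCaP-abl, VCaP, VCaP-CR, LAPC4, LAPC4-CR). Its levels thus grouped by lineage and not by state. NDUFA10, an accessory subunit, had the second highest mean change, 0.40 ± 0.13 (SD, n = 3 pairs), from levels of only 4.66 to 7.75. NDUFS4, an accessory subunit whose loss causes Leigh syndrome, had a mean change of -0.50 ± 0.30 (SD, n = 3 pairs). It went from 31.4 to 23.8, from 18.7 to 15.2 and from 30.0 to 16.3 (LnCaP, VCaP, LAPC4 pairs). NDUFB10 was the most even member among those lower in every pair, with changes of -0.53, -0.48 and -0.43. NDUFA4 carries an NDUF name but is now assigned to complex IV, and its changes were 0.09, 0.29 and -0.40.

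Complex II is succinate dehydrogenase, the only complex shared with the tricarboxylic acid cycle, and all of its subunits are nuclear. SDHA, the flavoprotein that oxidises succinate, was at 4.09 and 5.42 in the LnCaP lines, 5.91 and 5.24 in the VCaP lines and 8.01 and 11.4 in the LAPC4 lines. SDHB, the iron-sulfur subunit, was at 25.1 and 27.2, 35.5 and 33.4, and 48.7 and 36.3. SDHC, a membrane anchor, was at 31.9 and 51.1, 23.3 and 24.9, and 31.4 and 45.6. It was the one gene of the complex that was higher in every resistant library, with a mean log2 change of 0.43 ± 0.30 (SD, n = 3 pairs) and an edgeR adjusted p of 0.68. SDHD, the other anchor, was at 29.4 and 28.8, 26.9 and 30.8, and 16.1 and 13.8. Named copies of SDHA elsewhere in the genome held counts equal to 34.5% to 74.9% of the SDHA count, so reads may have been split between them. With the copies added, the SDHA change moved by at most 0.11.

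Complex III hands electrons from ubiquinol to cytochrome c, and in the VCaP pair all 9 of its members were below 0, with a median of -0.22. Without scaling that median was -0.14, and with the length trend removed it was -0.09 and 3 of 9 were above 0. The medians in the LnCaP and LAPC4 pairs were -0.05 and 0.06, of which the latter became -0.01 with factors from protein-coding genes. UQCRQ (ENSG00000164405, chromosome 5, 132230151 to 132231622, hg18), a small subunit that binds cytochrome b, was at 104 in VCaP and 49.4 in VCaP-CR, a log2 change of -1.05. Its other pairs were at 118 and 100 in LnCaP and LnCaP-abl and 90.3 and 93.7 in LAPC4 and LAPC4-CR, so the VCaP-CR library was the low one. CYC1, cytochrome c1, followed in the VCaP pair with 119 and 72.4, a change of -0.71. UQCR11, a small accessory subunit, was lower in each resistant library, at 95.9 and 75.2, 95.4 and 80.7, and 71.6 and 63.6. UQCR10 had the highest mean change of the complex, 0.07, and UQCRH, the hinge protein, the highest mean level, at 92.7 to 136. UQCRC2, a core subunit, had a mean change of 0.00.

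Complex IV reduces oxygen to water, and the median change of its 14 tested members was 0.27 for LnCaP, -0.16 for VCaP and -0.13 for LAPC4. The first stayed above 0 and the other two below 0 under both other scalings, at 0.17 and 0.29, -0.16 and -0.09, and -0.19 and -0.04, but the LAPC4 median was 0.01 with the length trend removed. In the LnCaP pair 9 of 14 were above 0. COX6A1 went from 72.2 to 119 in that pair, and COX4I1, the largest nuclear-encoded subunit, from 216 to 313. In the LAPC4 pair COX4I1 ran the other way, from 261 to 165. COX6C, a small transmembrane subunit, had the highest mean change of the complex, 0.21 ± 0.67 (SD, n = 3 pairs), with pairs on both sides of 0, at 0.48, -0.56 and 0.71. Apart from COX7B2, the lowest mean changes were those of COX7A2L, a factor that joins complexes III and IV and not a fixed subunit, at -0.25 ± 0.10, and COX5A, at -0.25 ± 0.31 (SD, n = 3 pairs each).

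Complex V makes ATP, and its 19 members had median changes of -0.06, -0.07 and 0.01 (LnCaP, VCaP, LAPC4 pairs), of which the last became -0.06 with factors from protein-coding genes. With those factors the LnCaP median was -0.16, and without scaling the VCaP median was -0.0019. ATP5B, the catalytic beta subunit, had the highest mean level of the complex, at 576, 646, 710, 609, 466 and 416 (order LnCaP, LnCaP-abl, VCaP, VCaP-CR, LAPC4, LAPC4-CR). ATP5F1, subunit b of the peripheral stalk, had the highest mean change, 0.25 ± 0.28 (SD, n = 3 pairs), followed by ATP5J2, subunit f, at 0.13 ± 0.50. ATP5O, the oligomycin sensitivity protein at the top of the stalk, went from 16.1 to 20.5, from 36.1 to 24.5 and from 28.2 to 18.4. Its sign differed between the LnCaP pair and the others. The lowest mean change, -0.41 ± 0.40, was that of ATP5SL, which carries the name of the family but is not a subunit of the enzyme.

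Gene length was set beside these small differences. Members were short by the deposited lengths, with a median of 2004 bases against 4263 for tested protein-coding genes, of which 86.5% were longer than the median member. Protein-coding genes showed a trend with length in every pair. Of 4 groups of equal size by length, the shortest had median changes of -0.02, -0.13 and -0.12 (LnCaP, VCaP, LAPC4 pairs), and the longest 0.16, 0.11 and 0.17. After a smooth trend over the 11341 genes was subtracted, the members' medians were 0.03, -0.06 and 0.03, and 43, 32 and 46 of 83 were above 0. The median of the VCaP pair thus went from -0.19 to -0.06. Among the 83 members themselves, length and change had Pearson's r 0.18, 0.09 and 0.21 (LnCaP, VCaP, LAPC4 pairs). Spearman's rho was 0.19, 0.07 and 0.17. Over tested protein-coding genes Pearson's r was 0.10, 0.23 and 0.16, so both relations were weak. Members shorter and longer than their median length had medians of -0.05 and 0.09, -0.19 and -0.21, and -0.09 and 0.03. NDUFS1, at 5660 bases, kept changes of 0.56, 0.28 and 0.81, and NDUFB4 had -1.36, 0.00 and -0.77.

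**Figure D2:**
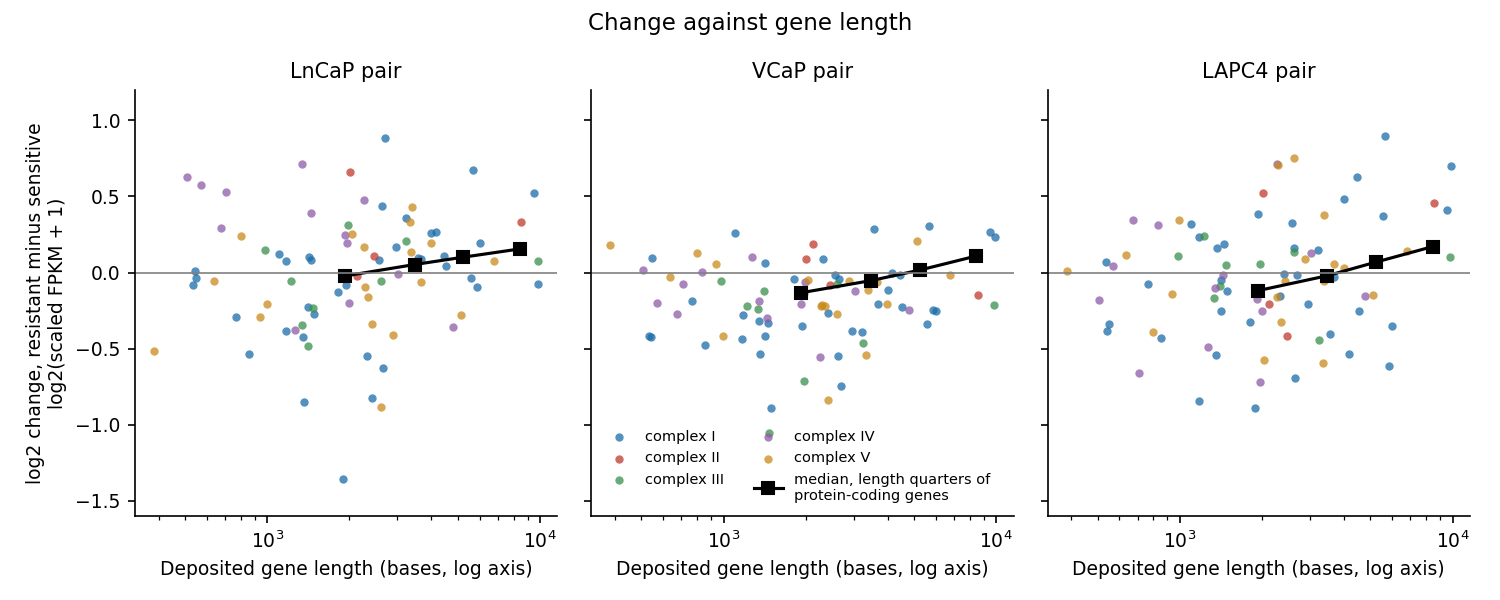
The horizontal axis is the deposited gene length on a log scale and the vertical axis the log2 change in each pair, with 1 point per tested member coloured by complex and black squares for the medians of 4 length groups of tested protein-coding genes. The squares rise from left to right in every pair, and most members lie at the short end (COX7B2, at -3.12 in the LnCaP pair, is outside the axis).

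The deposited lengths also set the order of levels. For the 85 members with a GENCODE coding transcript, the deposited length was more than 2 times the median coding transcript in 53, with a median ratio of 2.47 and a highest ratio of 15.2 in UQCRB. By deposited lengths UQCRB ranked 67 among the members in mean level, and by transcript lengths it ranked 15. The top pair only traded places: COX8A ranked 1 and ATP5B 2 by deposited length, and the reverse by transcript length. Changes between libraries use the same length on both sides. The deposited length thus enters their calculation only through the 1 added to scaled FPKM, which shrinks changes at low levels. The filter on low values and the length trend use the deposited lengths too, whereas the edgeR fold changes are calculated from counts without lengths. The edgeR fold changes rose with length all the same. Between states, their medians in the 4 length groups of protein-coding genes were -0.10, 0.01, 0.10 and 0.21, shortest group first. By position, 35 members overlapped another protein-coding entry, among them ATP5J2 and ATP5O, and whether counting used strand is not given in the sources used here, so part of their reads may belong to the overlapping gene.

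The members' changes were also set beside those of genes nearby on the chromosome. Over the 75 members with at least 5 other tested protein-coding genes within 1 Mb, the change in the VCaP pair correlated with the median change of those neighbours at Pearson's r 0.62 (Spearman's rho 0.61), against 0.29 in the LnCaP pair and 0.31 in the LAPC4 pair. These are descriptions across genes of the same libraries, and members close together share neighbours. All 11 tested members on chromosome 19 were below 0 in the VCaP pair, with a median of -0.41, and so were 75.8% of 819 other protein-coding genes there, with a median of -0.23. The members included NDUFA3, UQCR11, COX6B1 and ATP5D, so 4 complexes were represented. All 6 members on chromosome 5 were below 0 as well, with 64.3% of 488 other genes, and among them were UQCRQ and NDUFA2. Members and other genes did not go together on every chromosome. All members were below 0 on chromosomes 12 (5 members), 3 (3 members), 10 (2 members) and 18 (2 members), where 45.3%, 50.6%, 39.1% and 41.8% of the other genes were. On chromosome 20 ATP5E was above 0, and 69.5% of the other genes were below. In the LAPC4 pair the 7 members on chromosome 11 were all below 0, with 65.0% of 614 other genes. NDUFB4, with changes of -1.36, -0.13 and -0.89, had 11 neighbours with medians of -0.01, 0.06 and -0.04 (LnCaP, VCaP, LAPC4 pairs).

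The second comparison set each lineage, as the mean of its sensitive and resistant library, against the mean of the other 2 lineages, with state in the model. The 3 comparisons share all 6 libraries. Several members differed most between VCaP and the other lines. In edgeR at an adjusted p under 5%, 0 members were called higher in the LnCaP lineage (1.62% of all tested genes) and 0 lower (1.15%), with 10 members at an unadjusted p under 0.05. In the VCaP lineage 4 of 83 were called higher (7.04%) and 3 lower (5.27%). In the LAPC4 lineage 1 was called higher (4.84%) and 1 lower (3.15%). The share of members called was below that of all genes in each of these comparisons and directions. In the LnCaP lineage DESeq2 called 2 members higher, of which COX7B2 passed the filter only through LnCaP, and 2 lower, and limma called 1 higher. The shares of all genes called by DESeq2 and limma in the lineage comparisons are not given here, so these counts have no background.

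COX8A, the smallest subunit of cytochrome c oxidase (ENSG00000176340, chromosome 11, 63498655 to 63500591, hg18), showed the largest lineage difference of a called member. It was at 231 and 359 scaled FPKM in LnCaP and LnCaP-abl, 1264 and 1281 in VCaP and VCaP-CR, and 286 and 253 in LAPC4 and LAPC4-CR. Both VCaP libraries were more than 3 times any other and nearly the same as each other. State and medium differ together between them, and the part of either was not tested. The edgeR log2 fold change was 2.18 (SE 0.27, adjusted p 0.0067). COX8A alone gave 53.4% and 57.0% of the summed complex IV level in the VCaP pair, against 18.7% to 22.1% elsewhere. Without it, the sums of complex IV were 1102 and 966 in VCaP and VCaP-CR, within the range of the other lines, 961 to 1266.

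The RefSeq promoter of COX8A is shown because this gene carried the largest difference. The stretch is the 250 bases before the RefSeq start, chr11:63974370-63974619 of GRCh38.p14, plus strand, and capitals mark a CTTCCGG, the reverse complement of the ETS core CCGGAAG, whose first base lies 18 bases before the start.
COX8A: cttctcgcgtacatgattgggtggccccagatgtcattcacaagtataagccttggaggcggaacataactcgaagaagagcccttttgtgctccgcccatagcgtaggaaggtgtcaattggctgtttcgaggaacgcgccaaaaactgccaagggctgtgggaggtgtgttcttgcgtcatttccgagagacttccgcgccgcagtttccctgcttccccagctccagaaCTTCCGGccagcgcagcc

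COX7B, another small subunit of complex IV (chromosome X, 77041591 to 77049526, hg18), was called in opposite directions in 2 lineages. Its levels were 38.2 and 37.9 in the LnCaP lines, 71.8 and 65.8 in the VCaP lines and 17.9 and 19.6 in the LAPC4 lines. The 3 lineages did not overlap, and within each the resistant library was within 0.13 of its sensitive partner on the log2 scale. The edgeR log2 fold change was 1.37 (SE 0.24, adjusted p 0.018) for VCaP and -1.43 (SE 0.26, adjusted p 0.027) for LAPC4.

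NDUFS8 and NDUFV1 belong to the catalytic core of complex I, NDUFS8 as an iron-sulfur protein near the ubiquinone site and NDUFV1 as the flavin subunit that takes electrons from NADH. NDUFS8 was at 33.9 and 28.8 in VCaP and VCaP-CR and at 11.3 to 14.4 in the other 4 libraries, with an edgeR log2 fold change of 1.24 (SE 0.24, adjusted p 0.024). NDUFV1 was at 44.3 and 44.2 in the VCaP pair and at 16.9 to 25 elsewhere, with 1.15 (SE 0.27, edgeR adjusted p 0.041). For both genes, as for COX8A and COX7B, the 2 VCaP libraries lay above the other 4. NDUFS8, NDUFV1 and COX8A all lie on chromosome 11.

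NDUFB10 and ATP5H were among the 3 members called lower in VCaP. NDUFB10, an accessory subunit of the membrane arm (chromosome 16, 1949520 to 1951977, hg18), was at 103 and 70.9 in the LnCaP lines, 55.8 and 39.9 in the VCaP lines and 158 and 117 in the LAPC4 lines. Its edgeR log2 fold change was -1.19 (SE 0.25, adjusted p 0.032) for VCaP and 1.11 (SE 0.23, adjusted p 0.038) for LAPC4. ATP5H, subunit d of the ATP synthase stalk, was at 57.6 and 56.6 in the VCaP pair and at 110 to 147 elsewhere, with -1.13 (SE 0.25, edgeR adjusted p 0.036).

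Only COX8A was still called when either library of the VCaP pair was left out: 1 member was then called higher and 0 lower, in place of 4 and 3. The log2 fold changes were then 1.07 to 1.46 for COX7B, NDUFS8 and NDUFV1 and -1.19 to -1.11 for NDUFB10 and ATP5H, of the same sign as before. Without LAPC4-CR, ATP5H and NDUFV1 also lost their calls, at log2 fold changes of -1.09 and 0.99. In the fit with no state term NDUFB10 lost its calls in both lineages, at -1.19 for VCaP and 1.10 for LAPC4. The LAPC4 calls of COX7B and NDUFB10 were lost without any 1 of the 4 libraries of the VCaP and LAPC4 pairs.

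**Figure D3:**
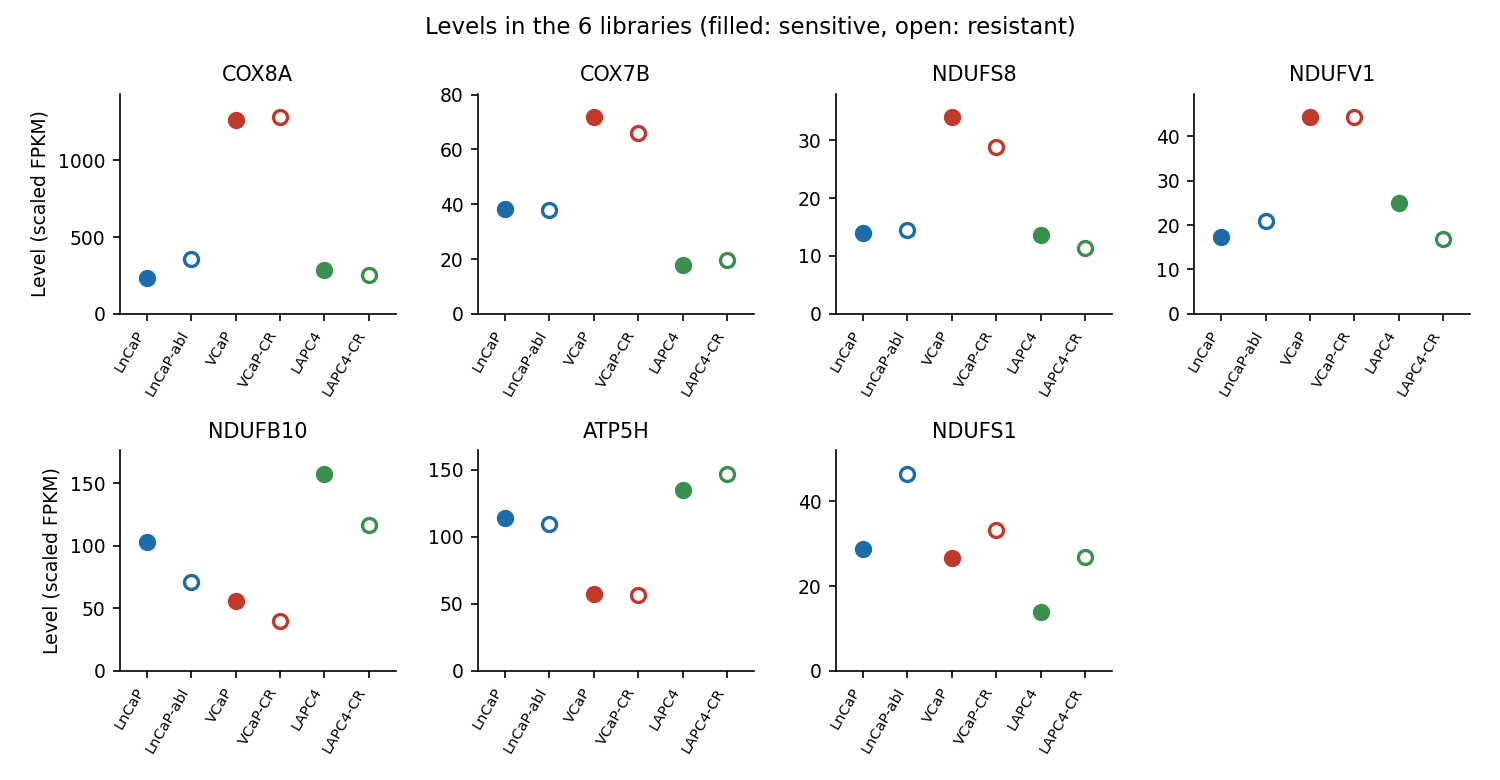
Levels in scaled FPKM (vertical axes from 0) of 6 of the 7 members called in a lineage comparison, and of NDUFS1, in the 6 libraries, with filled circles for sensitive and open circles for resistant lines and 1 color per lineage. COX8A, COX7B, NDUFS8 and NDUFV1 are highest in both VCaP libraries, NDUFB10 and ATP5H lowest there, and NDUFS1 is higher in the resistant library of each pair.

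Most genes around the called members had log2 fold changes of the same sign, but apart from those around COX8A most were not called. Within 1 Mb of COX8A there were 30 other tested protein-coding genes, of which 28 were above 0 in the VCaP comparison and 18 were called higher, with a median log2 fold change of 1.45 against -0.11 over all tested protein-coding genes. Around NDUFS8, 22 of 32 neighbours were above 0, with a median of 0.55, 2 called higher and 1 lower. Around NDUFV1 the count was 26 of 36, with a median of 0.68, 4 called higher and 1 lower. The windows around NDUFS8 and NDUFV1 overlap on chromosome 11. Over the 4.06 Mb from COX8A to NDUFS8, 96 of 109 other tested protein-coding genes were above 0 in the VCaP comparison. Their median was 0.94, with 33 called higher and 1 lower. Around NDUFB10, 53 of 56 neighbours were below 0, with a median of -0.91, 15 called lower and 3 higher. Around ATP5H the count was 37 of 40, with a median of -0.81, 6 called lower and 1 higher. COX7B had 6 neighbours, with a median of 0.38 in VCaP, where none was called (0 of 6), and -0.59 in LAPC4, where 1 was called lower. Over 75 members, Pearson's r between the member's log2 fold change and the median of its neighbours was 0.75 (Spearman's rho 0.64) in the VCaP comparison, 0.63 (0.56) in the LnCaP and 0.58 (0.57) in the LAPC4 comparison. Without chromosome 11 the VCaP value was 0.70 over 68 members. DNA copy number was not measured here, and its part in these differences was not tested.

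**Figure D4:**
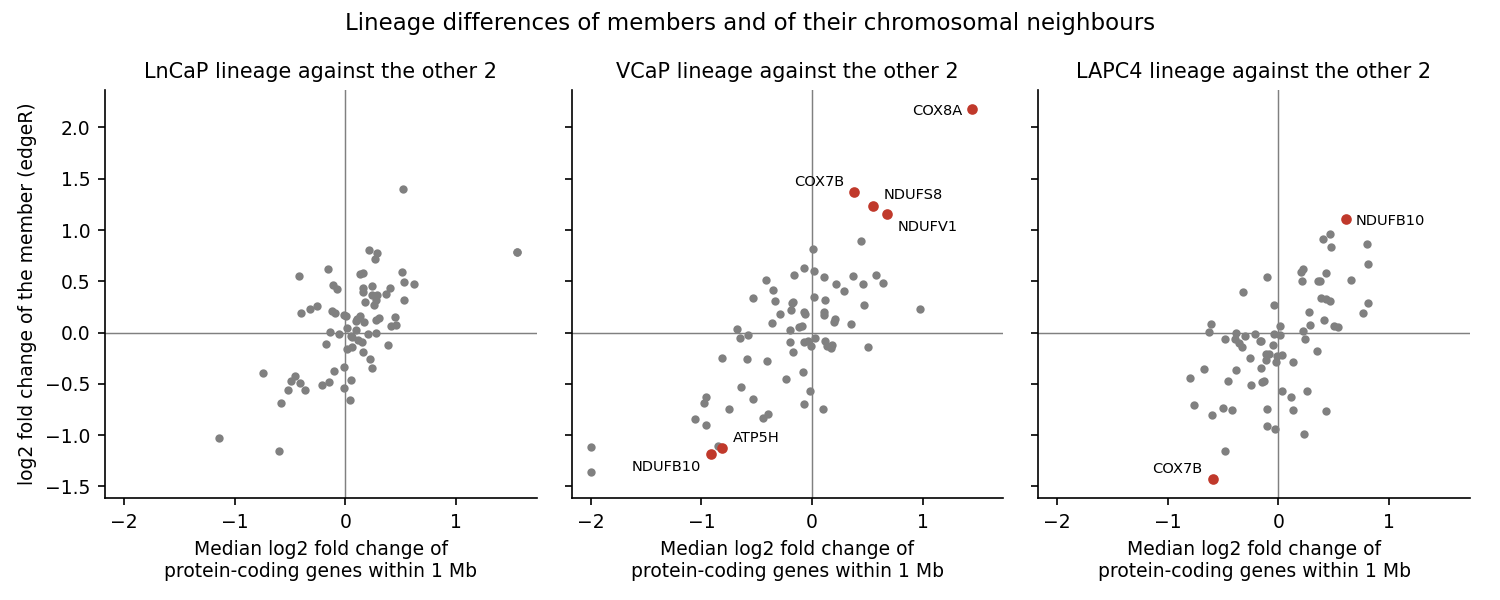
For each of 75 members, the horizontal axis gives the median edgeR log2 fold change of other tested protein-coding genes within 1 Mb and the vertical axis that of the member, in 1 panel per lineage, with the called members named here in red. COX8A lies at 1.45 and 2.18 in the VCaP panel, and NDUFB10 and ATP5H lie together at the lower left.

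COX4I1 and its neighbour COX4NB, at levels far apart, were both lowest in the VCaP lines. COX4NB, named for this position and counted among the members by its name, encodes a subunit of a membrane protein complex of the endoplasmic reticulum and none of the respiratory chain. The 2 genes lie head to head on chromosome 16, 142 bases apart in the deposited coordinates (hg18). COX4I1 was at 216 and 313 in the LnCaP lines, 112 and 106 in the VCaP lines and 261 and 165 in the LAPC4 lines, and COX4NB at 12.4 and 14.3, 5.2 and 4.67, and 15.5 and 9.05. Both were lower in LAPC4-CR than in LAPC4, and whether their patterns differ was not tested. The ratio of COX4I1 to COX4NB lay between 16.8 and 22.8 in all 6 libraries. Neither passed the threshold in edgeR for VCaP, with log2 fold changes of -1.12 (SE 0.33, adjusted p 0.073) and -1.36 (SE 0.35, adjusted p 0.052), whereas DESeq2 called both lower.

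The stretch that these genes share is shown because both were lowest in the VCaP lines, and its part in their levels was not tested. It covers the bases between the RefSeq starts, which lie 151 bases apart, and the first 30 transcribed bases of COX4I1, chr16:85799545-85799724 of GRCh38.p14, plus strand, with a CTTCCGG in capitals whose first base is the third of the transcript.
COX4I1: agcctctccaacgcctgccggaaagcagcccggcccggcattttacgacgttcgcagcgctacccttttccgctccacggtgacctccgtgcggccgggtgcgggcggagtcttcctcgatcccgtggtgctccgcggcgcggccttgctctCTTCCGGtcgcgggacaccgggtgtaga

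RefSeq promoters, 250 bases before to 50 after the start, were found for 67 of the 88 members. CCGGAAG on either strand was in the windows of 21 (31.3%), against 16.8% of 14859 protein-coding genes and 10.3% of all windows. AAGATGGCG, part of the YY1 motif, was in 8 (11.9%), against 3.33% of those genes and 1.75% of windows, and GCGCATGC, part of the NRF1 motif, in 14 (20.9%), against 4.98% and 3.05%. The NRF1 letters were shortened after a longer palindrome of the same motif had been searched, which was in fewer members and fewer of those genes. The ETS and YY1 letters overlapped in 0 members. Of the called members named here, COX8A and ATP5H held CCGGAAG, whereas COX7B, NDUFB10, NDUFS8 and NDUFV1 held none of the 3. COX4I1, which did not pass the threshold in edgeR, held CCGGAAG, and NDUFB4, called in no comparison, held GCGCATGC. A match describes letters only, and binding was not measured.

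Several subunits of complexes IV and V exist as isoforms. The ubiquitous form gave nearly all of the signal in these lines: COX4I1, COX6B1 and COX8A each made up at least 99.7% of the FPKM of their isoform pair, and COX7A2 at least 98.6%. The muscle forms COX6A2 and COX7A1 had at most 3 and 13 counts in any library. COX7B2, a form of COX7B known from testis, was the exception. It had 73 counts in LnCaP (95% Poisson interval 57.2 to 91.8, which covers counting error only) and 2, 3, 5, 0 and 5 in the other 5 libraries (order LnCaP-abl, VCaP, VCaP-CR, LAPC4, LAPC4-CR). Per total count, LnCaP exceeded LnCaP-abl by a ratio of 45.9, in 1 library each. COX7B2 made up 19.9% of the COX7B family's FPKM in LnCaP and at most 1.22% in the other libraries. Of the family's counts it made up 6.39% in LnCaP. The deposited length of COX7B is 5.0 times its median coding transcript and that of COX7B2 1.47 times, which raises the share by FPKM. The exact upper limit of the 0 in LAPC4 is 3.69 counts. COX7B2 was at 9.49 scaled FPKM in LnCaP and at most 0.38 elsewhere and passed the filter only through LnCaP, so no test of it is given.

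ATP5G1, ATP5G2 and ATP5G3 encode the same mature subunit c of the ATP synthase ring with different targeting peptides. ATP5G1 was at 26.4 and 13.8 in the LnCaP lines, 28.3 and 23.2 in the VCaP lines and 23.0 and 39.5 in the LAPC4 lines. Its share of the family's FPKM was 31.3% and 17.7%, 26.1% and 24.4%, and 30.6% and 42%. By counts the shares were 18.6% and 9.85%, 16.1% and 14.7%, and 19.1% and 27.7%, of the same order within each pair. The deposited lengths of ATP5G1, ATP5G2 and ATP5G3 are 5.19, 4.92 and 8.05 times their median coding transcripts, so the level of the shares depends on them. The LnCaP and LAPC4 pairs went in opposite directions, with log2 changes of -0.89 and 0.75. ATP5G3 stayed within 0.14 of its partner in every pair, and ATP5G2 within 0.21.

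**Figure D5:**
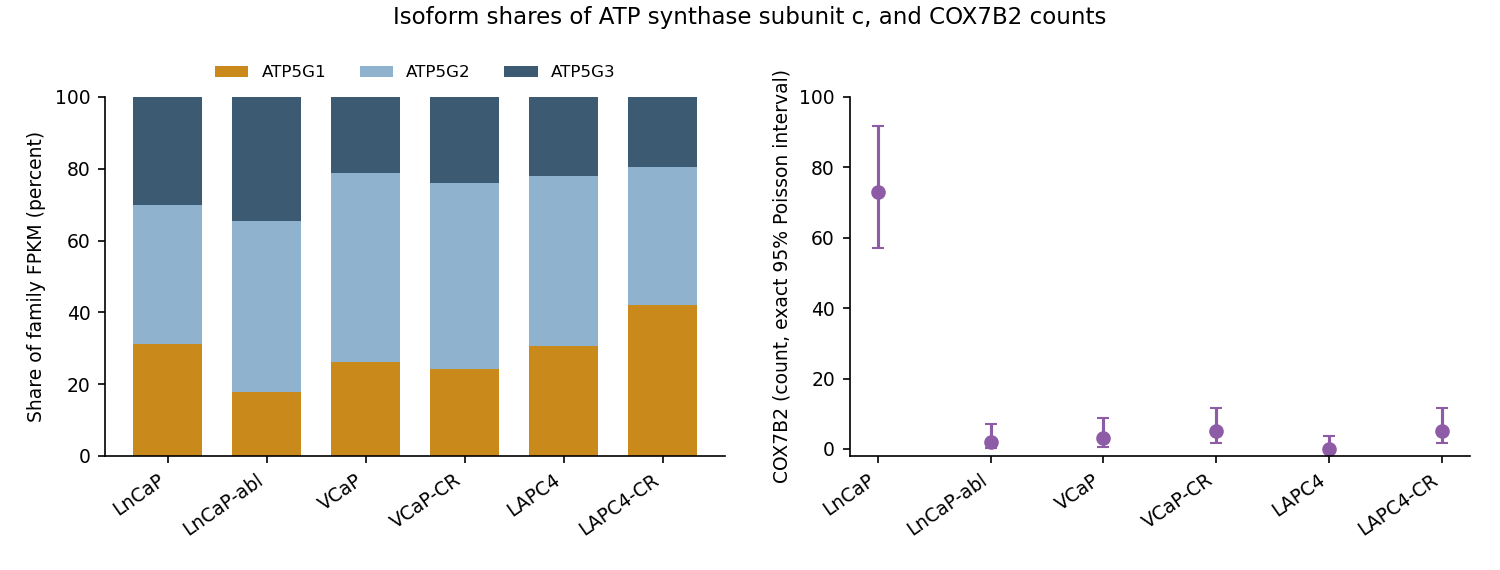
The left panel stacks the shares of ATP5G1, ATP5G2 and ATP5G3 in the family's FPKM (percent, by library), and the right panel gives the COX7B2 count in each library with its exact 95% Poisson interval. ATP5G1 is at 17.7% in LnCaP-abl and at 42% in LAPC4-CR, and the COX7B2 count of 73 in LnCaP stands above 0 to 5 elsewhere.

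Near-identical copies limit some of these values. The rows COX6A1P2 and ATP5EP2, protein-coding in the deposited tables, are copies of COX6A1 and ATP5E, and reads can be split between copy and gene. COX6A1P2 took 61.5% to 66.4% of the FPKM of the COX6A family, and ATP5EP2 took 74.0% to 80.8% of that of ATP5E, partly because the copies are short. By counts these shares were 40.5% to 45.6% and 17.6% to 24.1%. For the 29 members with a named copy, adding the counts of the copies moved no log2 change by more than 0.11.

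Other genes of the pathway, from lists chosen with earlier results known, were set beside the members. Of 78 tested genes of 4 such lists, 0 were called between resistant and sensitive libraries in edgeR, 4 had an unadjusted p under 0.05, and DESeq2 and limma called 0. Of 35 tested assembly factors, 1 was called higher in VCaP, UQCC (7.04% of all genes were), and 1 lower, TACO1 (5.27%). NDUFAF4, an assembly factor of complex I, was at 8.08 in LnCaP and 38.5 in LnCaP-abl, a log2 change of 2.12, and at 5.79 to 10.3 in the other 4 libraries. SDHAF1, which helps to build complex II, was lower in every resistant library, with a mean change of -0.53. Of 15 regulators of mitochondrial gene expression, 1 was called higher in VCaP (background 7.04%), the nuclear receptor ESRRA, and its change in the LAPC4 pair was -0.88. Of 17 genes of the tricarboxylic acid cycle and pyruvate dehydrogenase, SUCLA2, a succinyl-CoA ligase subunit, was higher in every resistant library, with a mean change of 0.65, and DLD, the shared dihydrolipoamide dehydrogenase, had a change of 1.33 in the LAPC4 pair. DLAT, the acetyltransferase of pyruvate dehydrogenase, was the 1 gene of that list called in a lineage, lower in LAPC4 (background 3.15%).

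Of 11 tested chain genes outside the name rule, C15orf48, whose product resembles NDUFA4, was at 0.845 in LAPC4 and 13.6 in LAPC4-CR, a log2 change of 2.99, and at 1.11 to 5.13 elsewhere. NDUFA4 itself was at 40.1 and 30.1 in LAPC4 and LAPC4-CR. ETFB and ETFDH, which pass electrons from fatty acid oxidation to ubiquinone, were called lower in the VCaP lineage (2 of 11, background 5.27%). GPD2, the mitochondrial glycerol phosphate dehydrogenase, was called lower in the LAPC4 lineage (1 of 11, background 3.15%), with levels of 0.403 and 1.86 against 5.16 to 9.11. The median changes of 74 mitochondrial ribosomal protein genes were -0.14, -0.25 and -0.06 (LnCaP, VCaP, LAPC4 pairs), and those of 87 cytosolic ribosomal protein genes -0.46, -0.12 and -0.44. Of the cytosolic genes 43 were lower in all 3 pairs, a share of 49.4%, against 17 of 83 respiratory chain genes.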

How the data were processed

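Per the labels' protocols, RNA was purified on RNeasy columns and sequenced from SOLiD Total RNA-Seq libraries. The submitters' processing notes name HTSeq and hg18. Aligner, annotation and strand setting: not given in the sources used here. Per the file headers, each deposited table lists gene identifier, name, locus, class, count and FPKM, and the counts are whole numbers per gene. The deposited FPKM was rebuilt from the count, the gene length and the file's total within 1% for 100% of the values of at least 0.1. Length is missing from 1 of the 6 deposited tables and was taken from the others.

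Rows of small RNA and rRNA classes (8763) were left out, and entries sharing a symbol were summed. Each library's FPKM was scaled by its median ratio to the geometric means of the 11600 genes that reached 1 FPKM in every library (factors 0.847 to 1.11). The 16231 genes whose mean scaled FPKM reached 1 entered edgeR 4.0.16 (quasi-likelihood, TMM, R 4.3.3) on the counts, with lineage and state in an additive model and Benjamini-Hochberg adjustment at 5%. The SE beside an edgeR log2 fold change is not reported by edgeR. It was calculated as the absolute log2 fold change divided by the square root of the test's F statistic. DESeq2 1.42.0 and limma 3.58.1 on log2(scaled FPKM + 1) were alternatives. On simulated counts for these 16231 genes, edgeR recovered 83% of 100 genes changed 4-fold between states and 100% of 100 changed 16-fold, with 6 false calls. For the VCaP lineage it recovered 78% and 100%, with 13 false calls. The changed genes were drawn from well-counted ones, and all genes had the same dispersion, 0.121. Changes below 4-fold were not simulated, so recovery of changes as small as those of most members is not known. The length trend was a lowess curve (span 30%, statsmodels 0.14.6). Intervals of counts are exact 95% Poisson intervals.

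Replicate numbers follow accession order and coincide with the lineages, since each resistant line carries the name of its parent. Deviations from the group means correlated at 0.46, 0.73 and 0.59 within the LnCaP, VCaP and LAPC4 lineages. In the additive model, p-values measure the spread left after lineage and state are fitted. That spread is how far the change from sensitive to resistant differs between the lineages. It is not a spread between replicate cultures, since no line has a replicate library. It may be technical or a real difference between lineages in that change, and these cannot be told apart. The members, the gene lists and the tests were chosen with earlier results of these data known. Named genes were all of complex II, the 2 highest and 2 lowest mean changes and the highest level of each other complex, members changed at least 2-fold or called in a comparison, isoform families, and the most changed genes of the other lists. NDUFA2, NDUFA3, NDUFA4, NDUFB3, COX4NB, CYC1, DLAT, ETFB and ETFDH were named outside this rule after their values were seen. The result of 1 called member is not reported here.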

Additional observations from a re-analysis of the deposited data

Results flagged for a closer look

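Within 1 member each, 2 pairs of libraries went in opposite directions by at least 1.5-fold. ATP5G1, which encodes subunit c of the ATP synthase, had 640 counts in LnCaP and 428 in LnCaP-abl but 778 in LAPC4 and 2571 in LAPC4-CR. Subtracting the change of the LAPC4 lines from that of the LnCaP lines gave -1.64 on the log2(scaled FPKM + 1) scale. NDUFA3, an accessory subunit of complex I, had 292 counts in LnCaP and 717 in LnCaP-abl but 414 in VCaP and 388 in VCaP-CR, and the same subtraction for LnCaP and VCaP gave 1.63. Each pair is 1 library per state, so neither difference was tested.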

How the results depend on the processing

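The calls rest on 6 libraries, and p-values have only 2 residual degrees of freedom before moderation. Between states, members stayed at 0 calls in either direction in every alternative run. Over all genes DESeq2 called 83 higher and 55 lower, the unfiltered edgeR fit 95 and 58, and leaving out 1 pair at a time gave 0 to 13 higher and 1 to 20 lower. Without the replicate block, edgeR called 0 genes and 0 members in either direction. In the LnCaP lineage, members called higher and lower numbered 2 and 2 with DESeq2 and 2 and 1 without the filter; limma and the fit with no state term each called 1 higher, and leaving out 1 library gave 0 to 1 higher. In the VCaP lineage DESeq2 called 7 lower and the unfiltered fit 5, and leaving out 1 library gave 1 to 4 higher and 0 to 5 lower. In the LAPC4 lineage DESeq2 called 3 higher and 4 lower, the unfiltered fit 2 lower and the fit with no state term 0 higher, and leaving out 1 library gave 0 to 1 higher and 0 to 2 lower. With 1 library of a lineage left out, the lone library is assumed to vary like the others. For the lineages, the shares of all genes called in the alternative runs are not given here, so the members' counts cannot be set beside a background. The members' median log2 change in the VCaP pair was -0.063 with the length trend removed. Of 99 recomputed log2 fold changes of called members, 71 kept direction and call and 28 kept direction only. Dropping the copies COX6A1P2 and ATP5EP2 was chosen after seeing the data and moved no median beyond the spread between pairs. The cause of these differences was not tested. Members at low counts, such as COX7B2, are limited by depth.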
